A study of Mus musculus with 6 samples.

Results

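The corticosteroid receptors and a set of glucocorticoid-induced genes were examined in the cerebral cortex of female F2 mice. The set comprised 10 genes taken by symbol from the 33274 gene rows of counts: the receptor genes Nr3c1 and Nr3c2 and the induced genes Fkbp5, Sgk1, Tsc22d3, Zbtb16, Pdk4, Errfi1, Plin4 and Klf9. Each symbol had 1 row, and all 10 passed the filter on low counts. All mice were wild type, of the outbred ICR stock and 6 weeks old, with 3 libraries per lineage. Their grandsires (F0) had been injected subcutaneously over 21 days, in one lineage with methylphenidate (15 mg/kg), a stimulant that inhibits dopamine and noradrenaline reuptake, and in the other with saline (10 mL/kg). F0 males and then 1 F1 male per litter were bred to females that had no drug, and the labels give the F2 mice no drug of their own. The comparison asked whether expression in the grandoffspring differed with what the grandsire had received. Which F2 mice had a sire or litter in common is not labelled, so a p-value here reflects only how these libraries spread, which may be partly technical.

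Corticosterone, the main glucocorticoid of mice, acts through 2 ligand-activated transcription factors. Nr3c1 encodes the glucocorticoid receptor, which is found in most cells, and Nr3c2 the mineralocorticoid receptor, which binds corticosterone more tightly and in the brain is best known from the hippocampus. Both are held by chaperones until hormone binds, and then occupy glucocorticoid response elements, which are palindromes of a pair of hexamers. Fkbp5 encodes a co-chaperone that lowers hormone binding by the receptor and is itself induced by it. Levels of these genes in tissue are widely used as a readout of recent hormone exposure, but hormone was not measured in the data used here.

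The promoter of Sgk1, which encodes a serum- and glucocorticoid-induced kinase, held a full palindrome of this kind, and it is shown because Sgk1 was the most variable member relative to genes of similar level. RefSeq promoter windows of GRCm38.p6, each 300 bases long and mostly upstream of an annotated start, were matched by symbol for 8 of the 10 genes, with 16 windows in all. Nr3c1 and Zbtb16 had no window. Windows were searched on both strands for the hexamer AGAACA, or TGTTCT on the other strand, and for the palindrome of AGAACA, 3 bases of any kind and then TGTTCT, with up to 2 mismatches in the hexamers. Palindrome matches without a mismatch contain the hexamer on each strand, so the searches overlap. The exact palindrome was found in 1 of the 16 windows, that of a Sgk1 start at chr10:21993640-21993939 on the plus strand, and in 3 of all 32851 windows in the table, or 0.00913%. The match began 189 bases before the start. In the sequence, capitals mark the palindrome's hexamers and 1 further hexamer upstream.
Sgk1 window: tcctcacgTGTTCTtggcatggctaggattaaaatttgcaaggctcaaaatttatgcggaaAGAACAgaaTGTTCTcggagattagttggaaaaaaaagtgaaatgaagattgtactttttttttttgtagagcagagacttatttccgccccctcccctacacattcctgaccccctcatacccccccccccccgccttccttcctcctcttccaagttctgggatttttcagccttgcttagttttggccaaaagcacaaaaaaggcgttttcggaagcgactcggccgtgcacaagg
Sgk1 exact match, chr10:21993701-21993715: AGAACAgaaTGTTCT
Sgk1 match with 2 mismatches at another start, chr10:21985921-21985935: AGAAGAttcTGATCT
Sgk1 had 6 of the members' 16 windows, so shares of windows weigh that gene most. Palindromes with up to 2 mismatches were found in 12.5% of the members' windows, both of them windows of Sgk1, and in 1.85% of all windows. By gene these were 1 of the 8 members and 567 of all 27025 genes. Hexamers were found in 25.0% of the members' windows, which belonged to Sgk1 and Tsc22d3, and in 19.0% of all windows. By gene they were found in 2 of the 8 members and in 5750 of all 27025 genes. A match is a description of these letters. Response elements of such genes can also lie far from the start, outside the windows searched.

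Total counts lay between 23896752 and 28120640 per library, and 3 counts, the limit that a count of 0 allows, equalled 0.107 to 0.126 CPM (counts scaled to the TMM-adjusted library size). All 8 cortical excitatory neuron markers were detected, summing to 6403 to 6676 CPM in saline and 6285 to 6663 CPM in methylphenidate libraries. Most of each sum was Camk2a, Nrgn and Slc17a7. Of the 8 markers, 6 were below 0 in the lineage difference. An unadjusted p under 0.05 (edgeR) was found in 3 of the 8, against 7.51% of all genes. Groups did not overlap in 3 of the 8, all lower in the methylphenidate lineage, against 13.5% of all genes in either direction. Their mean log2 CPM, each gene centred on its own mean, was 0.04 to 0.15 in saline and -0.18 to 0.02 in methylphenidate libraries. Slc17a7 (log2 fold change 0.04, SE 0.08) and Camk2a (0.05, SE 0.08) were above 0, and both overlapped between lineages. Tbr1, a transcription factor gene of deep-layer cortical neurons, did not overlap and was lower in the methylphenidate lineage (103.6 to 136.0 against 139.6 to 168.1 CPM), as was Nrgn, which encodes the postsynaptic protein neurogranin (1429 to 1648 against 1683 to 1710 CPM). Markers of striatal projection neurons, which lie below the cortex, had 11 of 12 genes tested, all above 0, and summed to 249 to 350 CPM in saline and 348 to 852 CPM in methylphenidate libraries. At an unadjusted p under 0.05 (edgeR) there were 10 of the 11, against 7.51% of all genes. Groups did not overlap in 7 of the 11, all of them higher in the methylphenidate lineage, against 13.5% of all genes in either direction. Isl1 of that list was at 0 in 1 library. Choroid plexus markers ranged from 45.8 to 669 CPM in the saline and from 25.6 to 509 CPM in the methylphenidate libraries. Oligodendrocyte markers summed to 5514 to 7570 against 5566 to 7511 CPM, astrocyte markers to 5073 to 5768 against 5102 to 5938, endothelial markers to 446.4 to 450.2 against 390.5 to 483.9, microglial markers to 364 to 390 against 366 to 475, and blood markers to 134 to 305 against 145 to 255. Of the 8 hippocampal markers 4 were above and 4 below 0, with a median log2 fold change of 0.00. Their sum was 89.8 to 104 CPM in saline and 112 to 139 CPM in methylphenidate libraries, and most of it was 1 gene, Wfs1 (61.4 to 69.8 against 79.8 to 109 CPM). Iyd of that list was at 0 in 2 libraries. In such bulk tissue, fewer cells of a type and less RNA per cell cannot be told apart.

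None of the 10 genes differed between the lineages past the threshold (edgeR quasi-likelihood test, Benjamini-Hochberg adjusted p under 0.05 over 18327 genes tested), where 5 genes or 0.0273% of all genes passed. DESeq2, which called 152 of the 18327 genes, and limma-voom, which called 5, also called 0 of the 10. At an unadjusted p under 0.05 there were 3 of the 10, Nr3c1, Zbtb16 and Klf9, all with lower values in the methylphenidate lineage, against 7.51% of all genes. The fitted log2 fold change, methylphenidate minus saline (the log2 difference), was below 0 in 8 of the 10 and in 49.7% of all genes, and its median was -0.17 over the 10 against 0.00 over all genes. The libraries of the lineages did not overlap in 2 of the 10, Zbtb16 and Klf9, both lower in the methylphenidate lineage. Groups did not overlap in 13.5% of all genes, and in 6.51% with the methylphenidate lineage lower.

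**Figure D1:**
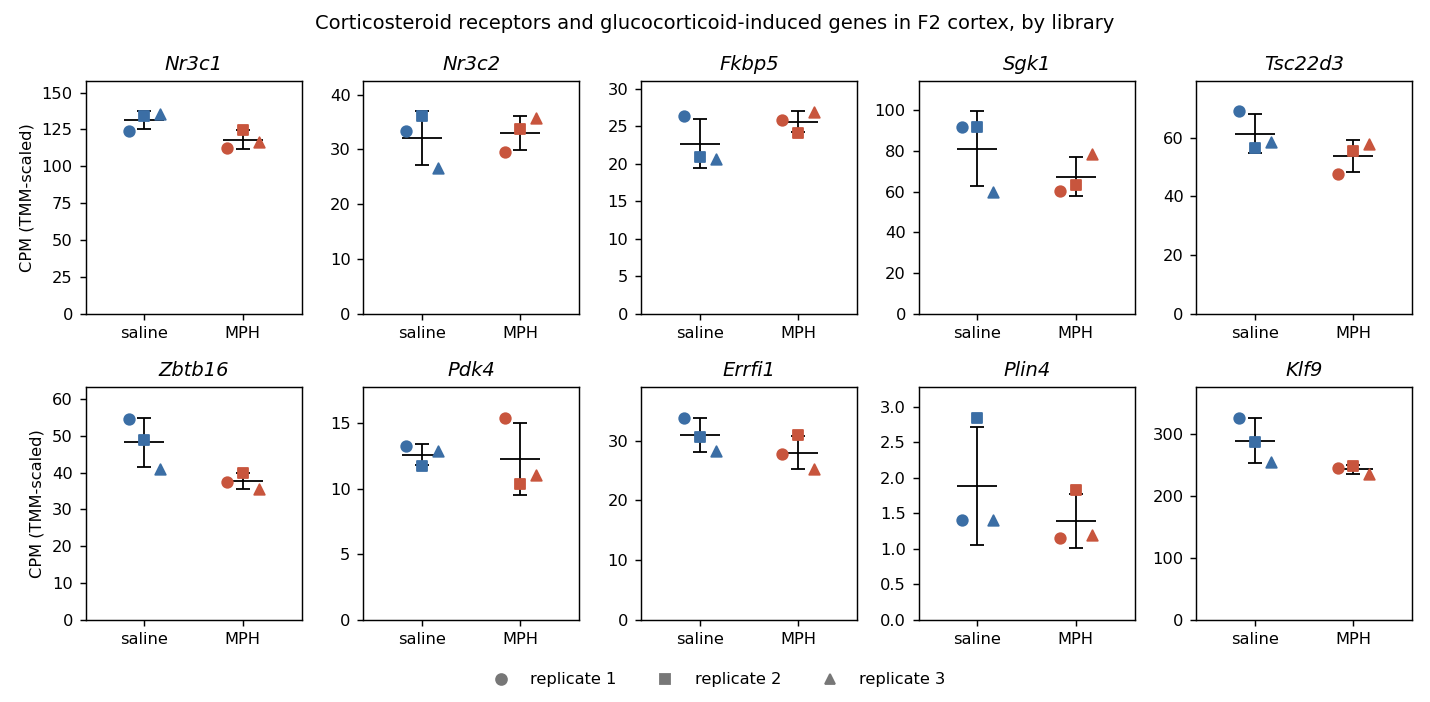
CPM of each of the 10 genes in every library, with saline lineage in blue and methylphenidate lineage (MPH) in red. Black lines are the mean and SD of 3 libraries, and each axis starts at 0. Marker shapes are replicate numbers, which are not labelled as pairing animals. In Zbtb16 (35.7 to 39.9 against 41.1 to 54.6 CPM) and Klf9 (235 to 249 against 254 to 327 CPM) the methylphenidate libraries lie below every saline library, and in the other 8 genes the groups overlap.

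Among the receptors, Nr3c1 (ENSMUSG00000024431) lay at 124, 134 and 135 CPM in saline replicates 1, 2 and 3 and at 112, 125 and 117 CPM in methylphenidate replicates 1, 2 and 3. The groups overlapped in 1 pair only, since methylphenidate replicate 2 (124.8 CPM) lay just above saline replicate 1 (124.1 CPM). The mean was 131.1 ± 6.1 CPM for saline and 117.8 ± 6.4 CPM for methylphenidate (SD, n = 3 each), a log2 difference of -0.15 (SE 0.07, adjusted p = 0.662 by edgeR). Nr3c2 (ENSMUSG00000031618) lay at 33.4, 36.1 and 26.6 CPM in the saline libraries and at 29.6, 33.8 and 35.7 CPM in the methylphenidate libraries. Saline replicate 3 was the lowest of the 6, and the groups overlapped (log2 difference 0.04, SE 0.12, adjusted p = 0.964 by edgeR). The log2 difference of Nr3c2 turned to -0.07 when saline replicate 3 was left out and to -0.02 when methylphenidate replicate 3 was. An annotated transcript on the opposite strand, Gm10649, overlaps exons of Nr3c2 in GENCODE M21 and had 10 to 57 counts per library. The sources used here do not give the strand setting, so reads of the pair cannot be told apart.

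The ratio of mineralocorticoid to glucocorticoid receptor transcript, each divided by the length of its exons, does not depend on library scaling. Nr3c2 over Nr3c1 was 0.319, 0.320 and 0.233 in saline replicates 1, 2 and 3 and 0.313, 0.321 and 0.363 in methylphenidate replicates 1, 2 and 3. Apart from saline replicate 3, which was low, and methylphenidate replicate 3, which was high, the libraries lay within 0.313 to 0.321. The mean was 0.291 ± 0.050 for saline and 0.333 ± 0.027 for methylphenidate (SD, n = 3 each; exact permutation p = 0.40, two-sided, where 0.10 is the smallest p that 3 against 3 allows). The difference of the means was 0.0417, and it shrank to 0.0128 when saline replicate 3 was dropped and to 0.0264 when methylphenidate replicate 3 was. The ratio was chosen with values of these genes known.

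Of the induced genes, Zbtb16 (ENSMUSG00000066687), a zinc finger repressor also called PLZF, had 54.6, 48.8 and 41.1 CPM in saline replicates 1, 2 and 3 and 37.5, 39.9 and 35.7 CPM in methylphenidate replicates 1, 2 and 3. The saline libraries spread widely, the methylphenidate libraries were close together, and saline replicate 3 lay closest to them. The means were 48.2 ± 6.8 and 37.7 ± 2.1 CPM, with a log2 difference of -0.35 (SE 0.11, unadjusted p = 0.00938 and adjusted p = 0.504 by edgeR). Without saline replicate 1 it was -0.26 (adjusted p = 0.812) and without saline replicate 3 it was -0.46 (adjusted p = 0.377). By DESeq2 the adjusted p was 0.184.

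Klf9 (ENSMUSG00000033863), a Krüppel-like transcription factor induced by both glucocorticoids and thyroid hormone, had 327, 287 and 254 CPM in the saline and 244, 249 and 235 CPM in the methylphenidate libraries. The order of the libraries was that of Zbtb16, with saline replicate 1 highest and methylphenidate replicate 3 lowest. The means were 289 ± 36 and 242.9 ± 7.0 CPM, with a log2 difference of -0.25 (SE 0.09, unadjusted p = 0.0170 and adjusted p = 0.563 by edgeR). Without saline replicate 1 it was -0.16 (adjusted p = 0.836 by edgeR) and without saline replicate 3 it was -0.34 (0.446). The groups did not overlap in Zbtb16 or Klf9 under any of the 4 scalings compared. The striatal markers moved with the lineage too, with all 11 tested above 0 and 7 of them higher in each methylphenidate library than in any saline library. Tbr1 and Nrgn were also lower in each methylphenidate library than in any saline library. Of the 8 markers in the same cortical list, 6 were below 0, and groups did not overlap in 3, all lower in the methylphenidate lineage. Slc17a7 and Camk2a, the 2 above 0, overlapped, with log2 differences of 0.04 and 0.05. Over all genes tested, groups did not overlap in 13.5%. The part of the striatal and cortical markers in the difference of Zbtb16 and Klf9 was not tested.

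Sgk1 (ENSMUSG00000019970) had 91.8, 91.7 and 59.9 CPM in the saline and 60.5, 63.4 and 78.6 CPM in the methylphenidate libraries. A pair of saline libraries stood high, while saline replicate 3 was the lowest of all 6, so the methylphenidate range lay inside the saline range. The log2 difference was -0.27 (SE 0.16, adjusted p = 0.764 by edgeR), and it was -0.17 without saline replicate 1 or 2 and -0.44 without saline replicate 3. Tsc22d3 (ENSMUSG00000031431), an X-linked gene for the anti-inflammatory protein GILZ, had 68.9, 56.5 and 58.6 CPM in the saline and 47.5, 55.5 and 57.8 CPM in the methylphenidate libraries. Saline replicate 1 was high and methylphenidate replicate 1 low, and the other 4 libraries lay between 55.5 and 58.6 CPM (log2 difference -0.19, SE 0.10, adjusted p = 0.731 by edgeR). Leaving out saline replicate 1 gave -0.10 and leaving out methylphenidate replicate 1 gave -0.12.

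Fkbp5 (ENSMUSG00000024222) was the only induced gene with a fitted change above 0. It had 26.5, 20.9 and 20.7 CPM in the saline and 25.8, 24.1 and 26.9 CPM in the methylphenidate libraries. Saline replicate 1 lay within the methylphenidate range and the other saline libraries below it. The means were 22.7 ± 3.3 and 25.6 ± 1.4 CPM (log2 difference 0.17, SE 0.12, adjusted p = 0.792 by edgeR), and the log2 difference moved to 0.30 when saline replicate 1 was dropped and to 0.11 when saline replicate 3 was. Its direction was kept in all 15 alternatives, as was the opposite direction of Zbtb16, Klf9, Sgk1, Tsc22d3, Errfi1, Plin4 and Nr3c1.

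Errfi1 (ENSMUSG00000028967), which encodes the feedback inhibitor MIG6 of the epidermal growth factor receptor, had 33.9, 30.7 and 28.2 CPM in the saline and 27.8, 30.9 and 25.3 CPM in the methylphenidate libraries (log2 difference -0.14, SE 0.11, adjusted p = 0.820 by edgeR). The log2 difference of Errfi1 moved to -0.07 when saline replicate 1 was dropped, to -0.08 when methylphenidate replicate 3 was dropped and to -0.22 when methylphenidate replicate 2 was dropped. Pdk4 (ENSMUSG00000019577), a kinase that inhibits pyruvate dehydrogenase, had 13.2, 11.7 and 12.9 CPM in the saline and 15.4, 10.4 and 11.1 CPM in the methylphenidate libraries (log2 difference -0.04, SE 0.17, adjusted p = 0.977 by edgeR). The highest and the lowest value of Pdk4 were both in the methylphenidate lineage, and without methylphenidate replicate 2 or 3 its log2 difference was 0.07 or 0.03. Plin4 (ENSMUSG00000002831), a lipid droplet coat protein gene, had 37, 73 and 34 counts in the saline and 28, 52 and 29 counts in the methylphenidate libraries, and the replicate 2 library was the highest in each lineage. Its log2 difference of -0.43 (SE 0.39, adjusted p = 0.859 by edgeR) moved to -0.01 when saline replicate 2 was dropped and to -0.68 when methylphenidate replicate 2 was. Exons of Plin4 overlap those of Hdgfl2 on the opposite strand in GENCODE M21, and Hdgfl2 had 1583 to 2037 counts per library, so the origin of the few Plin4 reads is uncertain.

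**Figure D2:**
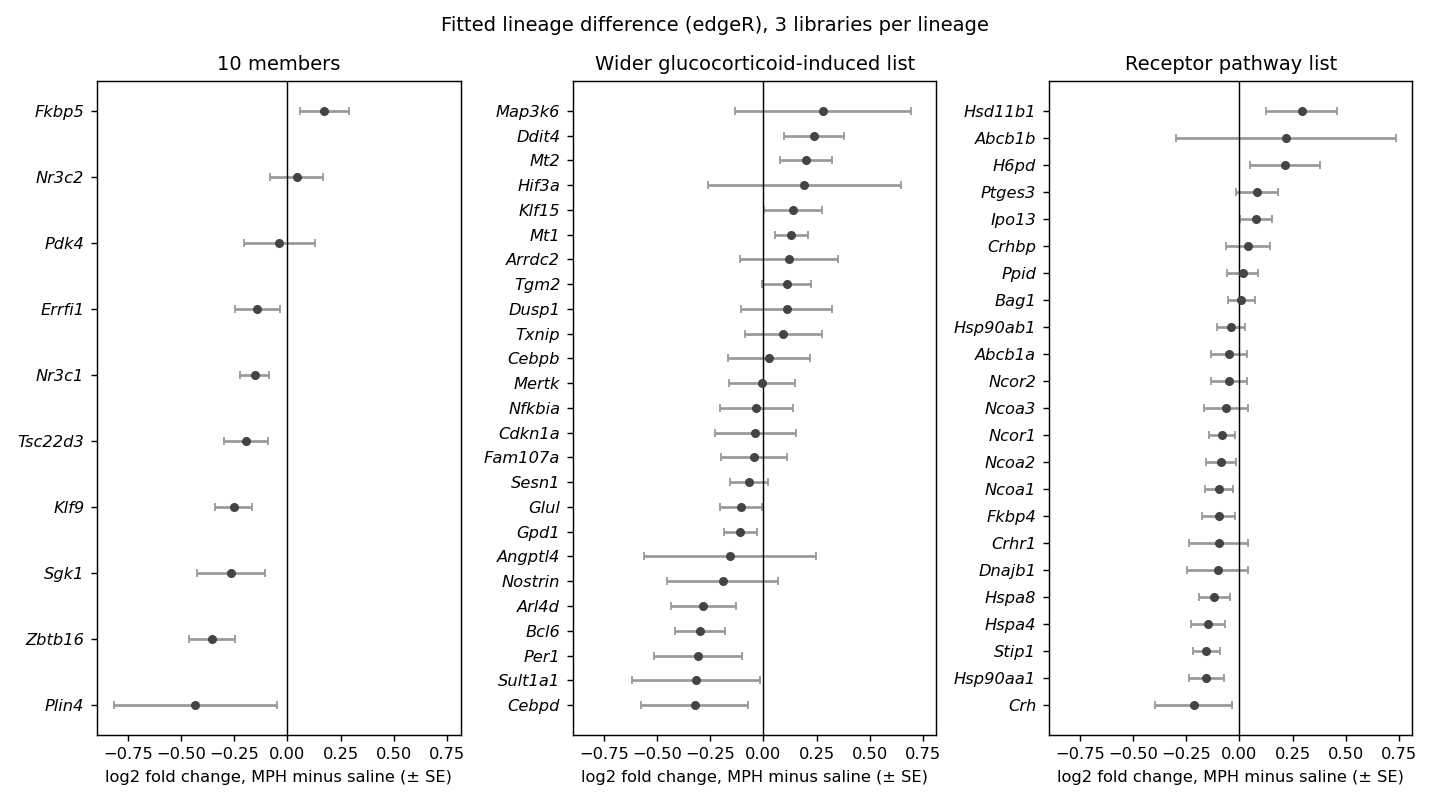
Fitted log2 fold change, methylphenidate (MPH) minus saline lineage, with its SE (edgeR, 3 libraries per lineage) for the 10 genes and for the tested genes of the wider induced list and the receptor pathway list, each ordered by value. The 10 genes run from -0.43 (Plin4) to 0.17 (Fkbp5), the wider list is spread on both sides of 0, and no gene shown passed the threshold.

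Levels of different genes were compared only per kilobase of exon. In the saline lineage Klf9 was highest at 60.1 ± 7.5 CPM per kilobase, followed by Nr3c1 (17.1 ± 0.8), Sgk1 (16.6 ± 3.8), Tsc22d3 (14.1 ± 1.5), Zbtb16 (9.1 ± 1.3), Errfi1 (8.6 ± 0.8), Nr3c2 (4.9 ± 0.8), Pdk4 (3.6 ± 0.2), Fkbp5 (2.4 ± 0.3) and Plin4 (0.33 ± 0.14; SD, n = 3). Nr3c1 and Sgk1, Sgk1 and Tsc22d3, and Zbtb16 and Errfi1 did not differ beyond their spread. In the methylphenidate lineage the order was the same except that Errfi1 (7.8 ± 0.8) stood before Zbtb16 (7.1 ± 0.4), and these again did not differ beyond their spread.

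The members differed in how much they varied between animals of 1 lineage. Sgk1 had a within-lineage SD of 0.29 on the log2 CPM scale, higher than in 97.2% of the 4204 genes with a mean CPM within 2-fold of its own. Klf9 (SD 0.13) and Nr3c2 (SD 0.19) stood above 82.9% and 82.4% of the genes near their level. Nr3c1 was the steadiest, with an SD of 0.07, above 34.3% of the genes near its level. The SDs of Fkbp5, Tsc22d3, Zbtb16, Pdk4, Errfi1 and Plin4 were above 59.2 to 79.8% of the genes near theirs, so 9 of the 10 members were more variable than the median of such genes.

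Covariation of the 10 genes was examined over the 6 libraries in log2 CPM, with exact two-sided permutation p-values over 720 orders and adjustment over all 45 pairs. Pearson's r was positive in 34 of the 45 pairs with a median of 0.22, against 50.1% positive and a median of 0.00 over all pairs of the 12172 genes with at least 5 CPM. No pair passed the adjusted threshold, and 4 had an unadjusted p under 0.05. Genes in these pairs share libraries and depth. Correlations within a lineage, which has 3 libraries, were not tested, and r of the deviations from the lineage means is given beside the pooled value as a description.

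The closest pair was Zbtb16 and Klf9, which were singled out after their values had been seen. Their r was 0.99 (exact permutation p = 0.00139, the smallest that 720 orders gave here; adjusted p = 0.0625), and their ranks were identical in the 6 libraries (Spearman's rho 1, exact permutation p = 0.00278, adjusted p = 0.125). It was 0.98 without saline replicates 1 and 2, 0.98 for deviations from the lineage means, and 0.99 without any one library and under each of the other 3 scalings. Only 7 other genes tested, or 0.0382%, had an r with Zbtb16 at least as high. Errfi1 went with both: its r was 0.88 with Zbtb16 (rho 0.83, exact permutation p = 0.0194 and 0.0583, adjusted p = 0.333 and 0.656) and 0.86 with Klf9 (rho 0.83, exact permutation p = 0.0222 and 0.0583, adjusted p = 0.333 and 0.656). These were 0.76 without saline replicates 1 and 2, and 0.53 without saline replicate 1 and methylphenidate replicate 3. Saline replicate 1 was the highest library in Zbtb16, Klf9 and Errfi1, and methylphenidate replicate 3 the lowest in all 3.

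**Figure D3:**
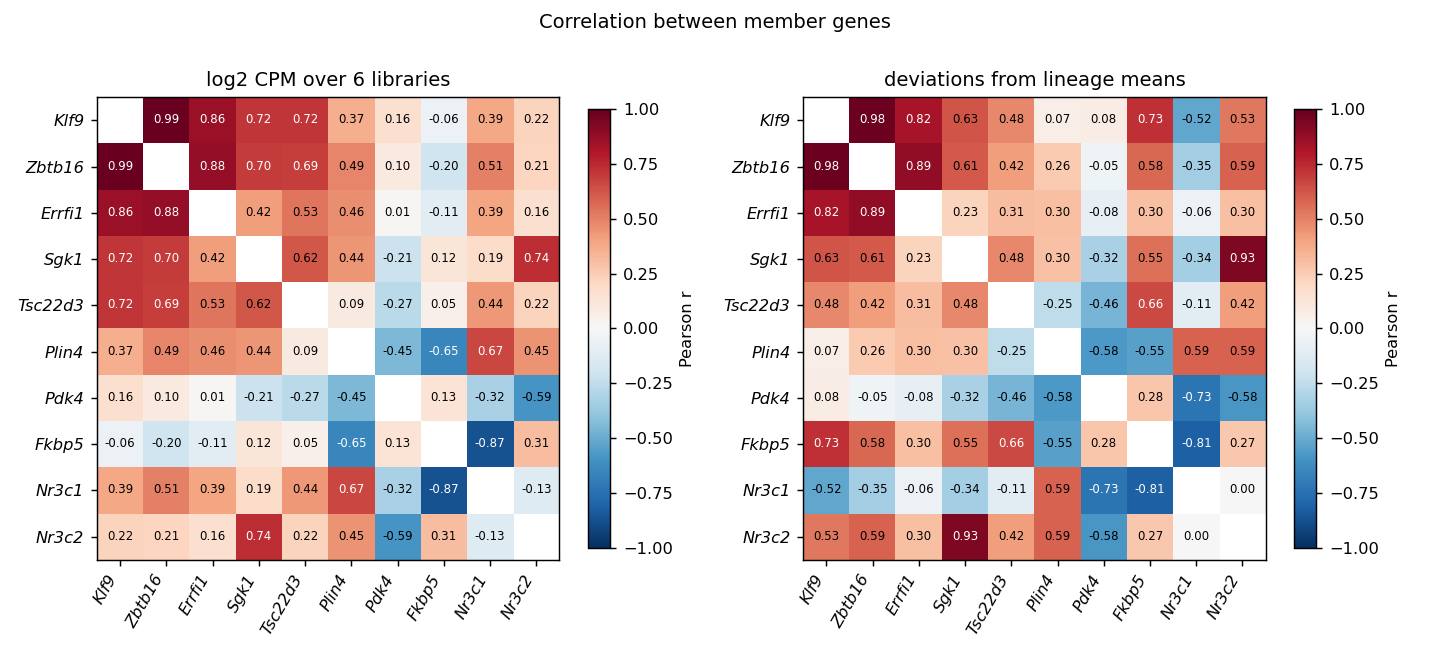
Pearson's r between each pair of the 10 genes over the 6 libraries, from log2 CPM (left) and from deviations from the lineage means (right), with red positive and blue negative. Klf9, Zbtb16 and Errfi1 form a block of 0.86 to 0.99 on the left, and the pair of Fkbp5 and Nr3c1 is negative on both sides (-0.87 and -0.81).

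Fkbp5 did not follow the other induced genes over the 6 libraries. Its r with Nr3c1 was -0.87 (rho -0.83, exact permutation p = 0.0444 and 0.0583, adjusted p = 0.5 and 0.656), and 203 other genes tested, or 1.11%, had an r with Fkbp5 as low. Saline replicates 2 and 3 had the highest Nr3c1 and the lowest Fkbp5. Without both of them r was -0.41, so the size of this relation rested on that pair of libraries, and with any 1 library left out r was -0.95 to -0.80. With the other 8 members r of Fkbp5 was 0.31 (Nr3c2), 0.12 (Sgk1), 0.05 (Tsc22d3), -0.20 (Zbtb16), 0.13 (Pdk4), -0.11 (Errfi1), -0.65 (Plin4) and -0.06 (Klf9), with exact permutation p of 0.133 to 0.928 and adjusted p of 0.648 to 0.949. The rho values were 0.26, 0.49, 0.09, -0.37, 0.03, -0.20, -0.43 and -0.37 in the same order (exact permutation p 0.356 to 1, adjusted p 0.762 to 1). Without saline replicates 2 and 3, the libraries farthest from the median of Fkbp5, r lay between -0.83 (Plin4) and 0.64 (Sgk1). In deviations from the lineage means r of Fkbp5 was 0.73 with Klf9, 0.66 with Tsc22d3, 0.58 with Zbtb16, 0.55 with Sgk1, 0.30 with Errfi1, 0.28 with Pdk4 and 0.27 with Nr3c2, and it was -0.55 with Plin4 and -0.81 with Nr3c1.

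The receptor genes did not follow each other (r -0.13, rho -0.03, exact permutation p = 0.832 and 1, adjusted p = 0.911 and 1), with r of 0.17 without saline replicate 3 and methylphenidate replicate 1. Nr3c2 went with Sgk1, a gene that the mineralocorticoid receptor also induces (r 0.74, rho 0.66, exact permutation p = 0.0889 and 0.175, adjusted p = 0.648 and 0.762). That r was 0.93 for deviations from the lineage means and 0.29 without saline replicate 3 and methylphenidate replicate 1, so the size of the pooled relation rested on that pair of libraries, and with any 1 library left out r was 0.66 to 0.87. Saline replicate 3 was the lowest library in both genes. The pair with Sgk1 had the highest r of Nr3c2 with any member, and the others ran from -0.59 (Pdk4) to 0.45 (Plin4). As high an r with Nr3c2 was found in 887 other genes tested, or 4.84%. Nr3c1 had r of 0.19 with Sgk1, 0.44 with Tsc22d3, 0.51 with Zbtb16 and 0.39 with Klf9 (exact permutation p 0.283 to 0.692, adjusted p 0.820 to 0.903). The rho values were -0.14, 0.37, 0.54 and 0.54 (exact permutation p 0.297 to 0.803, adjusted p 0.762 to 1), and without saline replicate 3 and methylphenidate replicate 1 r was 0.34, -0.15, 0.62 and 0.50. These r values became -0.34, -0.11, -0.35 and -0.52 for deviations from the lineage means. With Errfi1, Pdk4 and Plin4, r of Nr3c1 was 0.39, -0.32 and 0.67 (exact permutation p 0.158 to 0.533, adjusted p 0.648 to 0.903). For deviations from the lineage means these were -0.06, -0.73 and 0.59, so the pair with Plin4 stayed positive. Without saline replicate 3 and methylphenidate replicate 1 they were 0.60, 0.18 and 0.95.

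**Figure D4:**
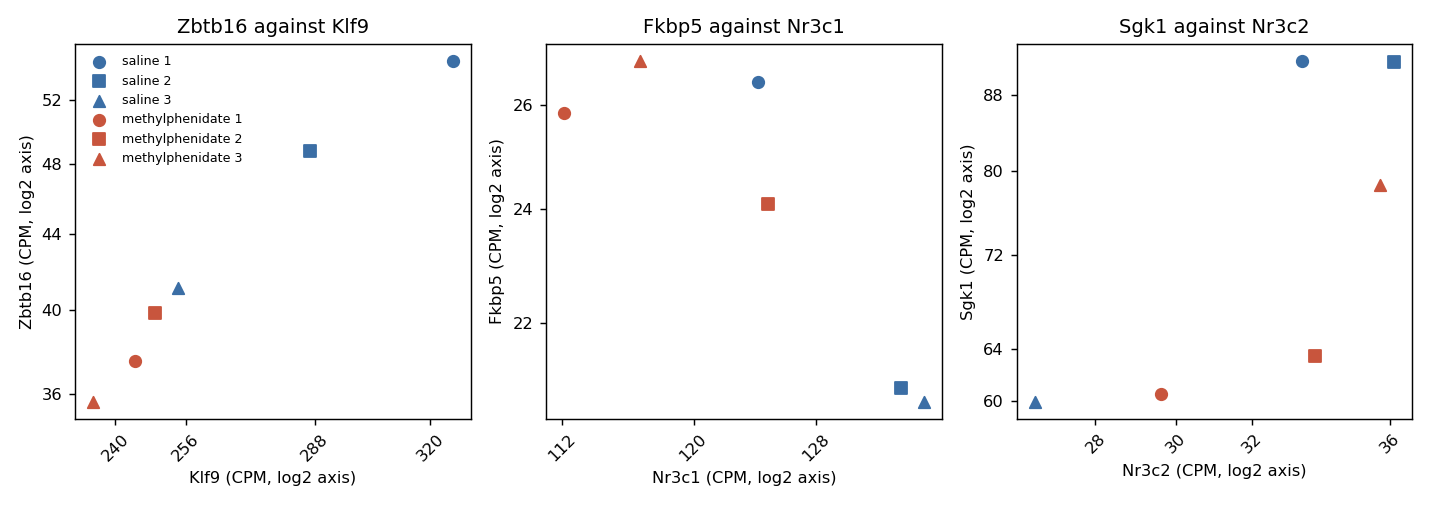
CPM of 1 gene against another in each of the 6 libraries on log2 axes that do not start at 0, with saline lineage in blue and methylphenidate lineage in red. Zbtb16 rises with Klf9 in the same order in all 6 libraries, Fkbp5 is lowest in the saline libraries with the highest Nr3c1, and Sgk1 and Nr3c2 are both lowest in saline replicate 3.

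The genes whose pattern was most like the mean standardized level of the 8 induced genes were named by rule. They were the 8 highest r over the 6 libraries among 11527 genes. These had at least 5 CPM and an informative symbol, with the members left out. The induced genes shared that mean unequally. With the mean of the others, r was 0.98 for Klf9, 0.94 for Zbtb16, 0.76 for Errfi1, 0.69 for Sgk1 and 0.59 for Tsc22d3. It was 0.16 for Plin4, -0.11 for Pdk4 and -0.15 for Fkbp5. The genes named were Ncoa1 and Ube2d3 (r 0.99 each), Myl12b, Iqsec1 and Ociad2 (0.98 each), and Pigp, Arhgef19 and Sdha (0.97 each). These 8 are the extreme of many genes compared over only 6 libraries. Of the 11527 genes, 122 had an r over 0.9 and 99 had an r under -0.9. Ncoa1 encodes a coactivator of steroid receptors and also belonged to the receptor pathway list. It had 147, 141 and 130 CPM in saline replicates 1, 2 and 3 and 131, 132 and 128 CPM in methylphenidate replicates 1, 2 and 3, a narrow range beside that of Klf9.

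The receptor pathway list held 24 genes for chaperones, coregulators, steroid conversion, efflux and corticotropin-releasing hormone signalling, of which 23 were tested. None passed the threshold by edgeR, 15 were below and 8 above 0, the median log2 difference was -0.06, and 1 of the 23 had an unadjusted p under 0.05, a smaller share than the 7.51% of all genes. That was Stip1, the co-chaperone that links Hsp70 and Hsp90, with 151, 153 and 146 CPM in the saline and 139, 138 and 127 CPM in the methylphenidate libraries, the only gene of the 23 whose groups did not overlap, against 13.5% of all genes (log2 difference -0.16, SE 0.06, adjusted p = 0.630 by edgeR). The chaperone genes Hsp90aa1 and Hspa4 had log2 differences of -0.16 (SE 0.08) and -0.15 (SE 0.08). Hsd11b1, whose enzyme regenerates active corticosterone inside cells, had 9.3, 12.3 and 13.1 CPM in the saline and 13.6, 12.3 and 16.7 CPM in the methylphenidate libraries (log2 difference 0.29, SE 0.17, adjusted p = 0.750 by edgeR). It ran opposite to the mean pattern of the induced genes, which Fkbp5, Pdk4 and Plin4 followed least (r -0.87 over the 6 libraries, as a description). Hsd11b2, whose enzyme inactivates corticosterone, had at most 2 counts in any library and was at 0 in 3 libraries, so no difference could be tested at this depth.

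The wider list of 26 glucocorticoid-induced genes, none of them among the 10, had 25 genes tested. None passed the threshold by edgeR, 14 were below and 11 above 0, the median log2 difference was -0.03 (0.06 when saline replicate 2 was left out, 0.02 when methylphenidate replicate 2 was), and 1 of the 25 had an unadjusted p under 0.05, again a smaller share than over all genes (7.51%). That was Bcl6, a zinc finger repressor, with 24.2, 27.9 and 25.7 CPM in the saline and 18.0, 22.6 and 22.9 CPM in the methylphenidate libraries. It was the only gene of the 25 whose groups did not overlap, against 13.5% of all genes (log2 difference -0.30, SE 0.12, adjusted p = 0.611 by edgeR). Arl4d, a small GTPase gene, had a log2 difference of -0.28 (SE 0.15). Ddit4, an inhibitor of mTORC1 signalling, and Mt1, a metallothionein gene, had log2 differences of 0.24 (SE 0.14) and 0.13 (SE 0.08). Lcn2, a secreted lipocalin gene, had at most 5 counts in any library and was not tested. The wider list thus did not share the median of the 8 induced genes, which was -0.22 with 7 of them below 0; whether the lists differ was not tested.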

How the data were processed

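Tools listed in the submitters' processing notes, without roles, are StringTie 2.2.1, HISAT2 2.2.1, fastp 0.23.4 and bcl2fastq 2.19, with the build GRCm39. Annotation, strand setting and counting step: not given in the sources used here. In the table the authors deposited, values are whole-number counts per gene, not normalized, 1 column per library. The 10 genes, the other lists and the tests were chosen with earlier results of these data known.

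The main test was edgeR 4.0.16 under R 4.3.3 (filterByExpr, TMM, glmQLFit and glmQLFTest, group as the only term, two-sided, Benjamini-Hochberg over all genes tested, threshold 0.05). SE is the log2 difference over the square root of F. Correlations used log2 CPM with a prior count of 2. CPM uses TMM-scaled totals of all rows, and exon lengths are unions from GENCODE M21 (GRCm38, matched by Ensembl ID). Alternatives were 3 other scalings, library sizes without mitochondrially encoded genes, no filter, a stricter filter (10 counts in 3 libraries, mean 1 CPM), DESeq2 1.42.0, limma-voom (limma 3.58.1), a replicate block, and each library left out. Genes named were the 10, at most 4 of smallest p per list, genes at 0, and the 8 most alike in pattern with an informative symbol. A marker gene that the rule names is not reported here.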

Additional observations from a re-analysis of the deposited data

How the results depend on the processing

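None of the 10 genes passed the adjusted threshold in any of the 15 alternatives, and the smallest adjusted p was 0.184 (Zbtb16, DESeq2). The direction of 8 was the same in all 15. Leaving out 1 library turned the direction of Nr3c2 (range -0.0742 to 0.138) and Pdk4 (-0.235 to 0.0706). Nr3c2 gave -0.0742 if saline replicate 3 was left out and -0.0167 if methylphenidate replicate 3 was, and Pdk4 gave 0.0706 and 0.0299 if methylphenidate replicate 2 or 3 was. Genes past the threshold numbered 5, against 10 with total counts, 3 with no filter, 152 with DESeq2 (108 higher and 44 lower), 2 with the replicate block, and 2 (without methylphenidate replicate 3) to 26 (without methylphenidate replicate 1) with 1 library left out. The median of the wider induced list was -0.0953 (without methylphenidate replicate 3) to 0.0555 (without saline replicate 2). With total counts r of Fkbp5 was -0.00015 with Sgk1 and -0.12 with Tsc22d3. The pairs of members with a positive r numbered 28 to 35, against 34, in the settings run. The labels give same-numbered libraries nothing in common but a number. Their deviations correlated at -0.04, 0.09 and -0.02, and the replicate block changed no call of a member. Summed oligodendrocyte, astrocyte and blood markers were highest in replicate 1 and lowest in replicate 2 of each lineage. For oligodendrocyte markers they were 7570, 5514 and 7019 CPM in saline replicates 1, 2 and 3. In methylphenidate replicates 1, 2 and 3 they were 7511, 5566 and 7172 CPM. The other cell type sums kept no such shared order. Whether same-numbered libraries shared a batch is not labelled. Depth limits Plin4, Hsd11b2 and Lcn2, and 3 libraries per lineage limit every comparison.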

Other observations

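Clock genes and activity-induced genes, which glucocorticoids and handling are known to touch, were read from the same fit. Of 15 core clock genes tested, 13 were below 0 with a median log2 difference of -0.13, and none passed the threshold by edgeR while 2 of the 15, Bhlhe40 and Hlf, had an unadjusted p under 0.05 (7.51% of all genes). Groups did not overlap in 2 of the 15, Bhlhe40 and Cry2, a share near the 13.5% of all genes. Bhlhe40, a clock-controlled repressor, had 138, 123 and 143 CPM in saline replicates 1, 2 and 3 and 68.8, 118 and 92.9 CPM in methylphenidate replicates 1, 2 and 3 (adjusted p = 0.497 by edgeR). Hlf, a clock output factor, had 229, 205 and 216 CPM against 180, 212 and 174 CPM (adjusted p = 0.640 by edgeR). Cry2, a clock repressor gene, had 143 to 157 against 125 to 142 CPM. Nr1d2, which encodes REV-ERB beta, overlapped between lineages and had an r of 0.88 with the mean pattern of the 8 induced genes over the 6 libraries, as a description. Per1, a clock gene that glucocorticoids induce directly, picked with its values in view, had 113, 89.6 and 126 CPM in the saline and 58.3, 111 and 95.9 CPM in the methylphenidate libraries, and its r with that pattern was 0.24. Of the 10 activity-induced genes 7 were below 0 and none passed by edgeR. Egr1, an immediate early gene, was the only one with an unadjusted p under 0.05 (270 to 456 against 207 to 321 CPM, adjusted p = 0.569 by edgeR), and its groups overlapped. Btg2, an antiproliferative gene, Egr2 and Npas4 had log2 differences of 0.46 (SE 0.22), -0.34 (SE 0.32) and -0.17 (SE 0.17).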
